A study of Mus musculus with 24 samples.

Results

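The annexins are a family of calcium-dependent phospholipid-binding proteins, and the genes described here are Anxa1, Anxa2, Anxa3, Anxa4, Anxa5, Anxa6, Anxa7 and Anxa11. They were chosen by gene symbol, with results of the same arrays already known, and the probe set of each gene was selected on its mean level over the 24 arrays, so counts of members describe these genes and support nothing about the family at large. Of the 8 members, 7 had a probe set assigned to a single gene, out of 12394 genes measured in that way. The only probe set of Anxa11 is also annotated to 2 other symbols, and Anxa11 was not analysed here.

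The study set normal cerebellum and Shh-type medulloblastoma (MB) of mice beside cultured lines from such tumors, and then compared those lines with cells given growth factors and with cells transformed by RAS. Wild-type cerebellum was taken at postnatal day 6 (P6, 2 arrays) and from an adult (1 array), and 3 primary MB came from Ptch1 mutant adult mice. SMB21, SMB55 and SMB56 are neurosphere lines from spontaneous MB of Ptch+/- mice, grown in DMEM/F12 with B27 supplement, so the parental, GF and RAS cells of a line all carry the Ptch1 mutant genotype. The 8 parental arrays hold SMB21 (4), SMB55 (2) and SMB56 (2). GF cells gave 1 array per line after more than 3 weeks in medium with heparin and 20 ng/mL each of EGF and bFGF, and the 7 RAS arrays hold SMB21 (3), SMB55 (2) and SMB56 (2). The labels name neither the RAS allele nor its vector, nor whether a line is 1 clone. Replicates are titled biological, but no label ties them to separate cultures or animals, so the p-values measure the spread between these arrays. One P6 array has an age label that conflicts with its title, and the title was followed.

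Annexins bind acidic phospholipids in membranes when calcium rises, through a core of repeated domains that they share, while their N-terminal tails differ and set their partners. They act in membrane repair, vesicle traffic and the organisation of the cell cortex, and some reach the outside of the cell. Anxa1 is a glucocorticoid-regulated mediator that signals through formyl peptide receptors, Anxa2 forms a complex with S100a10 that binds tissue plasminogen activator and plasminogen at the cell surface, and Anxa5 is the phosphatidylserine-binding protein used to stain apoptotic cells. In the brain, Anxa1 and Anxa3 are prominent in microglia, and Anxa2 is prominent in vessels, meninges and other non-neuronal cells.

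All levels are log2(intensity + 16), and every difference is one of such values, so a unit is a 2-fold step and changes of dim genes are understated. The lower quartile of an array lay between 5.91 and 6.07, and the levels of Anxa1 and Anxa3 in parental cells lay close to it or below it. Within groups, arrays correlated between 0.944 (the parental SMB56 pair) and 0.997 (the P6 pair) over all genes. Parental SMB21 replicate 1 stood apart from the other arrays of its group (0.969 to 0.971, against up to 0.996 among the others). The 8 markers of granule neuron precursors and MB all lay above the lower quartile in every cerebellum, tumor and parental array. An adjusted p is limma's, over all 12394 genes.

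**Figure D1:**
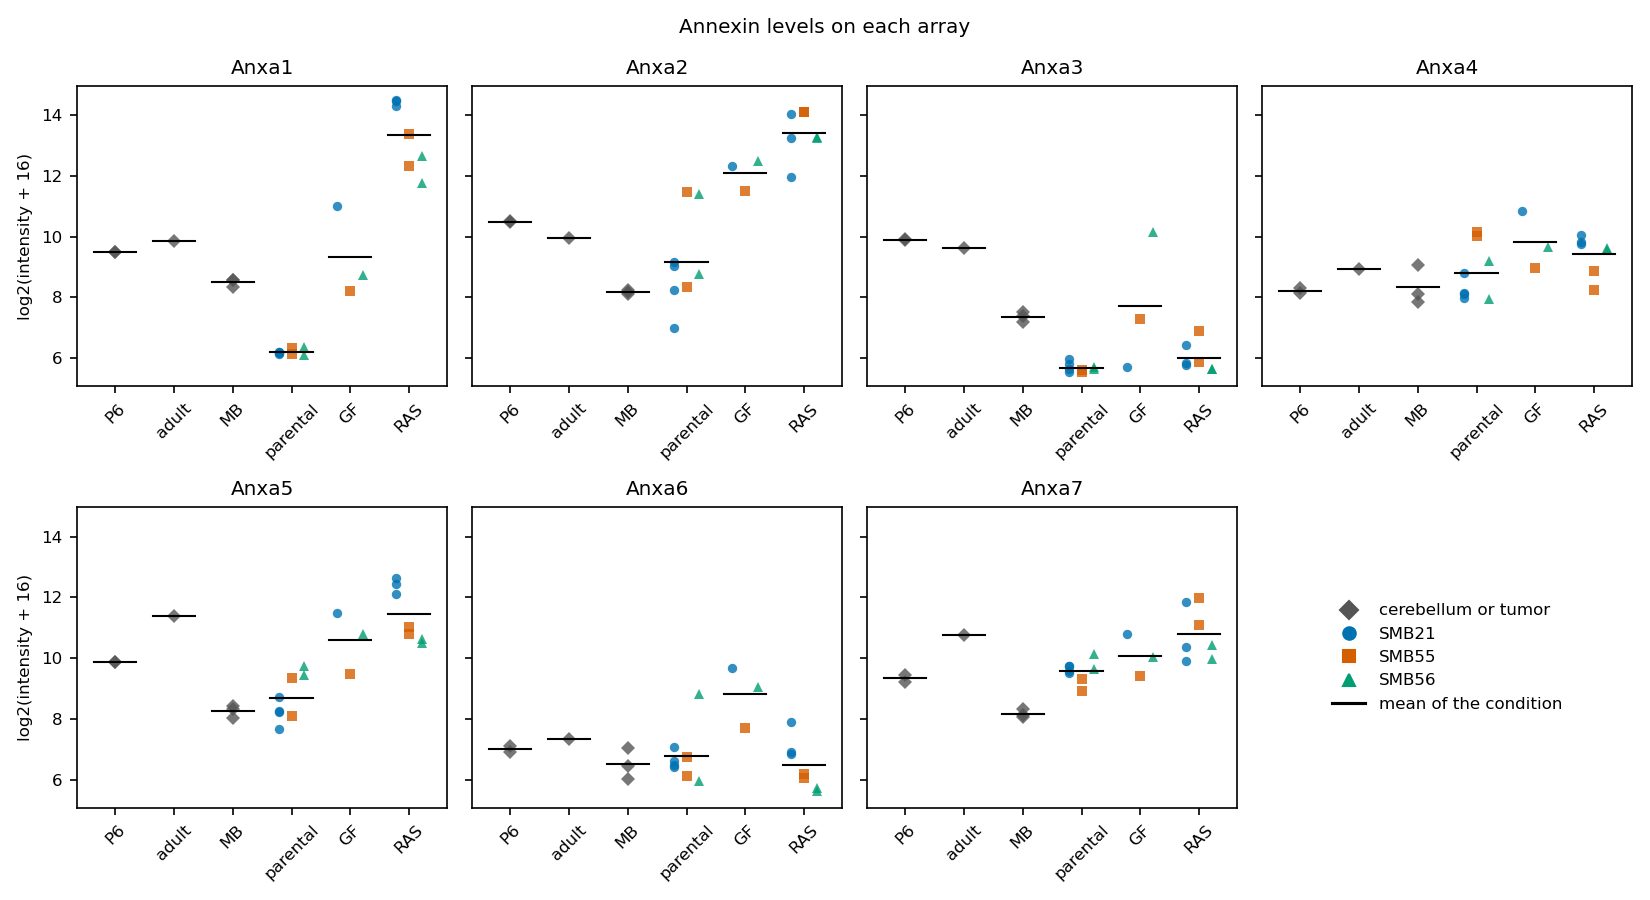
Level of each measured annexin on every array, as log2(intensity + 16), by condition; diamonds are cerebella and tumors, circles SMB21, squares SMB55 and triangles SMB56, and a bar is the mean of the condition. Anxa1 is lowest in parental SMB cells (6.10 to 6.38) and highest in RAS cells (11.75 to 14.51), while Anxa3 has its highest condition mean in P6 cerebellum (9.87 and 9.91) although the SMB56 GF array lies above it (10.16), and Anxa6 spreads most among the parental arrays of SMB56 (8.81 and 5.95).

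In RAS cells, 4 of the 7 measured annexins rose against parental cells: Anxa1, Anxa2, Anxa5 and Anxa7. Over all genes 14.1% were called higher and 17.9% lower in this comparison. The median difference of the 7 members was 1.24, against -0.05 over all genes. Anxa1, Anxa2 and Anxa5 lay higher on all 7 RAS arrays than on any of the 8 parental arrays, which held for 3.72% of all genes. The arrays measure bulk RNA, in which fewer cells of a type and less RNA per cell cannot be told apart.

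Anxa1 had the largest difference of the members. Its parental levels were 6.21, 6.16, 6.14 and 6.20 in SMB21, 6.15 and 6.35 in SMB55, and 6.10 and 6.38 in SMB56. Its RAS levels were 14.48, 14.51 and 14.31 in SMB21, 12.33 and 13.38 in SMB55, and 12.66 and 11.75 in SMB56. The parental arrays were thus uniformly near the lower quartile of the array, whereas every RAS array was far above it, with SMB21 above the other lines. The difference was 7.21 (SE 0.35, adjusted p = 1.61e-08), or 148.5-fold on the scale with the pseudocount.

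Anxa2, the annexin of the surface plasminogen system, varied much more among parental arrays. Its levels there were 6.99, 8.25, 9.16 and 9.02 in SMB21, 8.34 and 11.47 in SMB55, and 8.77 and 11.39 in SMB56. RAS cells had 14.03, 11.97 and 13.26 in SMB21, 14.11 and 14.09 in SMB55, and 13.28 and 13.24 in SMB56. The highest parental arrays, replicate 2 of SMB55 and of SMB56, came within 1 unit of the lowest RAS array, but the groups did not overlap. The difference was 4.19 (SE 0.56, adjusted p = 7e-05), an 18.2-fold change, and it was 1.58 when all probe sets of the gene were averaged.

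Anxa5 lay at 7.68, 8.23, 8.70 and 8.26 in parental SMB21, at 8.08 and 9.35 in parental SMB55, and at 9.46 and 9.72 in parental SMB56. Its RAS levels were 12.45, 12.13 and 12.65 in SMB21, 10.78 and 11.03 in SMB55, and 10.49 and 10.64 in SMB56. The groups were separate, with the narrowest gap in SMB56. The difference was 2.80 (SE 0.42, adjusted p = 0.000189), a 6.95-fold change, and it was 1.58 (adjusted p = 0.0223) without line SMB21.

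Anxa7, a GTP- and calcium-dependent membrane fusion protein first known as synexin, moved least of the 4. Parental arrays ran from 8.92 through a median of 9.60 to 10.15, and RAS arrays from 9.90 through 10.42 to 11.97, so the groups overlapped. The difference of 1.24 (SE 0.33, adjusted p = 0.0107) was not called without line SMB21 (1.36, adjusted p = 0.072) or without line SMB55 (0.80, adjusted p = 0.101), and it was 0.74 with all probe sets averaged.

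Anxa3, Anxa4 and Anxa6 did not pass the test in RAS cells. Anxa3, an annexin of phagocytes, stayed close to the lower quartile in both groups (5.53 to 5.96 in parental and 5.63 to 6.88 in RAS cells), with a difference of 0.30 (SE 0.44). Anxa4, found mostly at apical and intracellular membranes of epithelia, had a pooled difference of 0.63 (SE 0.43, adjusted p = 0.282), which was called without line SMB55 (1.41, adjusted p = 0.00472). Anxa6, the large annexin with a duplicated core, had a difference of -0.27 (SE 0.41).

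Other cell type markers moved in the same comparison, where 14.1% of all genes were called higher and 17.9% lower. Their part in the annexin differences was not tested. The summed intensity of 10 markers of fibroblasts and meninges was 1027 to 7825 on parental and 4907 to 18230 on RAS arrays, and 3 of them rose and 1 fell. For 12 markers of endothelium and pericytes the sums were 662 to 5062 and 3053 to 7224, and 4 rose. The highest parental sums here were those of SMB56 replicate 2 (5062) and SMB55 replicate 2 (2269), and the others ran from 662 to 846. Those replicates also had the highest parental Anxa2 levels (11.39 and 11.47). For 17 markers of microglia and macrophages the sums were 661 to 810 and 900 to 1755, and 4 rose. No intensity on these arrays is 0; of the 17 microglial markers, 4 to 6 exceeded the lower quartile on parental arrays and 6 to 9 on RAS arrays. Of the 8 markers of granule neuron precursors and MB, 7 fell in RAS cells, with sums of 17956 to 32838 on parental and 2701 to 13098 on RAS arrays.

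The promoter windows shown are those of Anxa1 and Anxa2, the members with the greatest RAS differences. Each holds the 250 bases before the start site on GRCm38.p6, from RefSeq, read 5′ to 3′ on the gene's strand. The window of Anxa1 is chr19:20390672-20390921 on the minus strand and that of Anxa2 is chr9:69453433-69453682 on the plus strand. Capitals mark the only match to an AP-1 motif.
Anxa1: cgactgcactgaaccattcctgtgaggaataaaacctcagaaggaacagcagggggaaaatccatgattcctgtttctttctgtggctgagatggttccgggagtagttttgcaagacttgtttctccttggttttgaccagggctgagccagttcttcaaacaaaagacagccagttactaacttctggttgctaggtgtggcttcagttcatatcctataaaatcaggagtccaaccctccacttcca
Anxa2: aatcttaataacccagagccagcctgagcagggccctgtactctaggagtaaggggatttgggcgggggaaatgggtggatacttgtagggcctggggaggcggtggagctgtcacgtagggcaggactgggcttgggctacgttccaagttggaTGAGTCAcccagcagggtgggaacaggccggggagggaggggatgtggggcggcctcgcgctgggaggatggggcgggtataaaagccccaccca

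The motifs searched, on both strands of all windows, were TGANTCA (AP-1, the Fos and Jun dimer), CCGGAAG (ETS factors) and GACCACCCA (Gli factors). RefSeq windows were at hand for 6 of the 8 members, 8 windows in all, and they include Anxa11 but neither Anxa3 nor Anxa6. The AP-1 motif occurred once, in the Anxa2 window, 95 bases before the start site, and no other motif overlapped it. The other members' windows held none of the 3 motifs. Among 32851 windows of this length, 6.75% held the AP-1 motif, 6.91% the ETS motif and 0.225% the Gli motif. A match is a description of the letters and not of a bound site.

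The size of the RAS response differed by line for Anxa1, Anxa4 and Anxa5 by the F test between lines, which called 3.45% of all genes. Anxa1 rose by 8.26 in SMB21 (SE 0.24), 6.61 in SMB55 (SE 0.32) and 5.97 in SMB56 (SE 0.32), and was called in each line (adjusted p at most 6.59e-06). The F test gave an adjusted p of 0.02, which became 0.05004 without parental SMB21 replicate 3. The response of SMB56 was smaller than that of SMB21 by 2.29 (SE 0.40, adjusted p = 0.0186). Within single lines, 9.1%, 10.6% and 6.14% of all genes were called higher in SMB21, SMB55 and SMB56, and 10.3%, 10.9% and 5.9% lower.

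Anxa5 followed the same order of lines. It rose by 4.19 in SMB21 (SE 0.29, adjusted p = 5.46e-06) and by 2.19 in SMB55 (SE 0.38, adjusted p = 0.00263). In SMB56, where its parental level was highest, the difference was 0.98 (SE 0.38, adjusted p = 0.123). The F test gave an adjusted p of 0.012.

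Anxa4 went in opposite directions. In SMB21 it lay at 8.15, 7.97, 8.80 and 8.10 in parental and at 10.04, 9.76 and 9.82 in RAS cells, and rose by 1.62 (SE 0.28, adjusted p = 0.00237). In SMB55 it lay at 10.02 and 10.14 in parental and at 8.23 and 8.86 in RAS cells, and fell by 1.53 (SE 0.37, adjusted p = 0.0131). In SMB56 it lay at 9.19 and 7.95 in parental and at 9.56 and 9.61 in RAS cells, a difference of 1.02 (SE 0.37, adjusted p = 0.0993). The F test gave an adjusted p of 0.012, and the responses of SMB55 and SMB21 differed by -3.15 (SE 0.46, adjusted p = 0.00745).

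The other members showed no called difference between lines. Anxa2 differed by 4.73 in SMB21 (adjusted p = 0.00282), 4.20 in SMB55 (adjusted p = 0.02) and 3.18 in SMB56 (adjusted p = 0.0872), with SEs of 0.85 to 1.11. Anxa7 rose in SMB55 by 2.41 (SE 0.51, adjusted p = 0.00691), and its differences of 1.07 in SMB21 and 0.31 in SMB56 were not called. Its F test between lines had an adjusted p of 0.213, and 0.0276 without RAS SMB21 replicate 1, the array with the highest Anxa7 level of that line (11.85). Anxa6 differed by 0.57, -0.31 and -1.70 in SMB21, SMB55 and SMB56, none called, with an F test adjusted p of 0.279, and 0.0056 without parental SMB56 replicate 2. Anxa3 differed by 0.28, 0.80 and -0.03 in the 3 lines, none called.

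**Figure D2:**
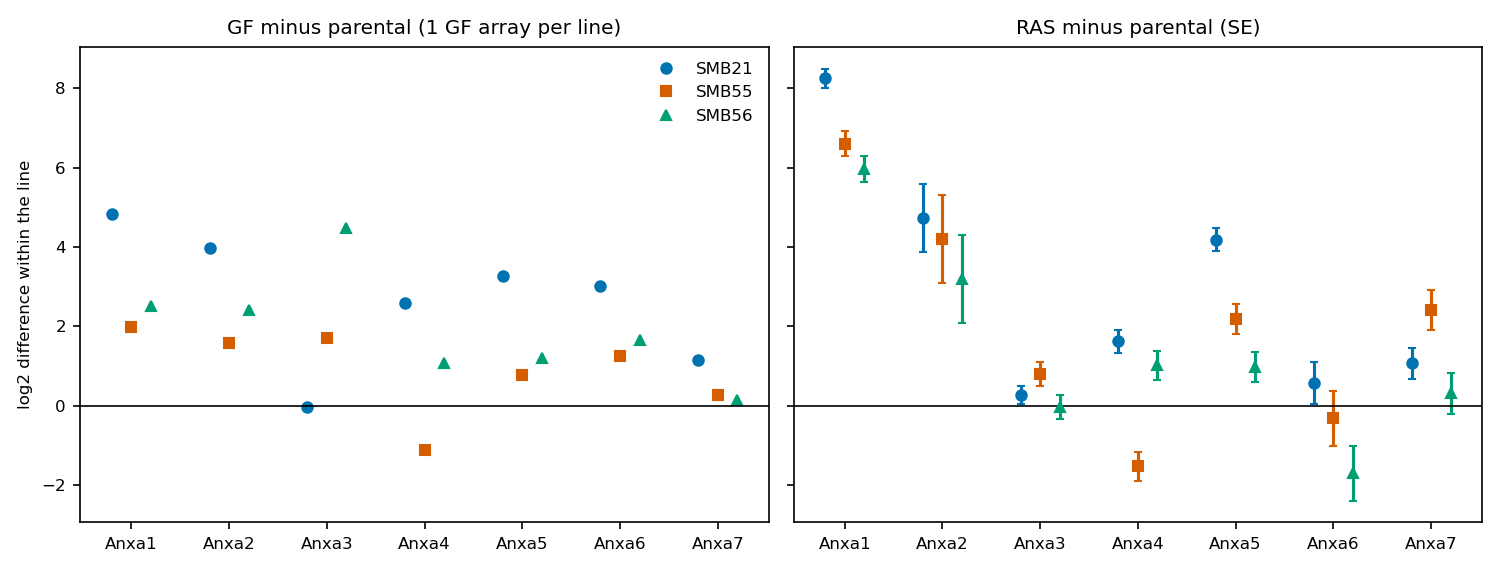
Differences within each line against the parental mean, in log2 units, for GF cells (left, 1 GF array per line and no error) and RAS cells (right, with the SE of the fit). Anxa1 lies between 5.97 and 8.26 in RAS cells of the 3 lines, and Anxa4 lies above 0 in SMB21 and SMB56 and below 0 in SMB55 in both panels.

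With growth factors, Anxa1, Anxa2, Anxa3, Anxa5 and Anxa6 rose against parental cells, 5 of the 7 measured members, where 3.99% of all genes were called higher and 4.96% lower. The comparison uses the same parental arrays as that of RAS cells. The median difference of the members was 1.97, against -0.01 over all genes. Only Anxa1 and Anxa2 lay higher on all 3 GF arrays than on any parental array, as did 4.01% of all genes.

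Anxa1 was at 11.005 in GF cells of SMB21, 8.22 in SMB55 and 8.75 in SMB56, above all parental arrays. Its lowest RAS array was at 11.75. The difference from parental cells was 3.30 (SE 0.46, adjusted p = 0.00107). Anxa2 was at 12.33, 11.49 and 12.48 in the same order, a difference of 2.77 (SE 0.73, adjusted p = 0.0286), or 1.17 with all probe sets averaged. The SMB55 GF array was barely above the highest parental array of Anxa2.

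Anxa5 was at 11.48, 9.49 and 10.79 in GF cells of SMB21, SMB55 and SMB56, and the SMB55 array overlapped the parental range. The difference was 1.97 (SE 0.55, adjusted p = 0.0371). Anxa6 was at 9.67, 7.70 and 9.05, above all parental arrays except SMB56 replicate 1 (8.81), and the difference was 2.13 (SE 0.54, adjusted p = 0.0252). Each of the 3 lines thus had more Anxa6 in GF cells than on any of its own parental arrays.

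Anxa3 was at 5.69 in GF cells of SMB21, within the parental range of that line, at 7.27 in SMB55 and at 10.16 in SMB56. Set against the parental mean of the line, these are differences of -0.03, 1.70 and 4.49, each from 1 array and not tested. The pooled difference was 1.97 (SE 0.58, adjusted p = 0.048). With a pseudocount of 64 it was 1.49 and not called (adjusted p = 0.0607). The Anxa3 call was lost in 24 of 33 alternatives. Anxa4 was at 10.85, 8.97 and 9.65, which differs from the parental means by 2.60, -1.11 and 1.08; the pooled difference of 1.04 (SE 0.56, adjusted p = 0.292) was called without line SMB55 (1.92, adjusted p = 0.0112) and as a mean of the differences within lines (0.86, adjusted p = 0.0447). Anxa7 was at 10.79, 9.40 and 10.04, with a pooled difference of 0.54 (SE 0.44) that was not called.

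With 1 GF array per line, most of these calls rest on single arrays. Without the SMB21 GF array, Anxa2, Anxa5 and Anxa6 were not called (2.23, 1.59 and 1.83, adjusted p = 0.175, 0.206 and 0.143), and Anxa3 reached 3.07. Without the SMB56 GF array, Anxa2, Anxa3, Anxa5 and Anxa6 were not called (2.71, 0.69, 1.91 and 2.01, adjusted p = 0.119, 0.291, 0.146 and 0.12). Anxa5 was also not called without parental SMB21 replicate 2, 3 or 4 or parental SMB55 replicate 1 (1.89 to 1.95, adjusted p from 0.0583 to 0.0599). Anxa3 was also not called without the SMB55 GF array, any 1 of the 8 parental arrays, or any 1 RAS array other than SMB55 replicate 2 (1.88 to 2.21, adjusted p from 0.0538 to 0.0813). Anxa1 was called whichever single array was left out. In a fit of the parental and GF arrays alone, Anxa2 (adjusted p = 0.0773), Anxa3 (0.0956) and Anxa6 (0.0533) were not called, and median centring took Anxa3 to 0.0503. Without line SMB21, Anxa2 (1.99, adjusted p = 0.326), Anxa3 (3.09, 0.0772), Anxa5 (0.99, 0.299) and Anxa6 (1.46, 0.352) were not called. Without line SMB55, Anxa3 (2.13, adjusted p = 0.128) and Anxa6 (2.53, 0.0574) were not called. Without line SMB56, Anxa2 (2.88, adjusted p = 0.111), Anxa3 (0.75, 0.312) and Anxa5 (2.22, 0.0656) were not called.

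Some markers moved with growth factors too, where 3.99% of all genes were called higher and 4.96% lower. Their part in the annexin differences was not tested. Of the 8 markers of granule neuron precursors and MB, 4 fell, with sums of 17956 to 32838 on parental and 4624 to 14261 on GF arrays. Of the 9 astrocyte and Bergmann glia markers 1 rose, with sums of 2176 to 23950 on parental and 16369 to 28516 on GF arrays. Of the 10 fibroblast and meningeal markers 1 rose (1027 to 7825 and 2294 to 4634), and of the 17 microglial markers 1 (661 to 810 and 799 to 1039). In the lists of Purkinje cells (4 markers) and mature granule neurons (5 markers), 1 marker each fell. No marker was called among the 12 of endothelium and pericytes, the 7 of the oligodendrocyte lineage and the 4 of choroid plexus and ependyma.

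**Figure D3:**
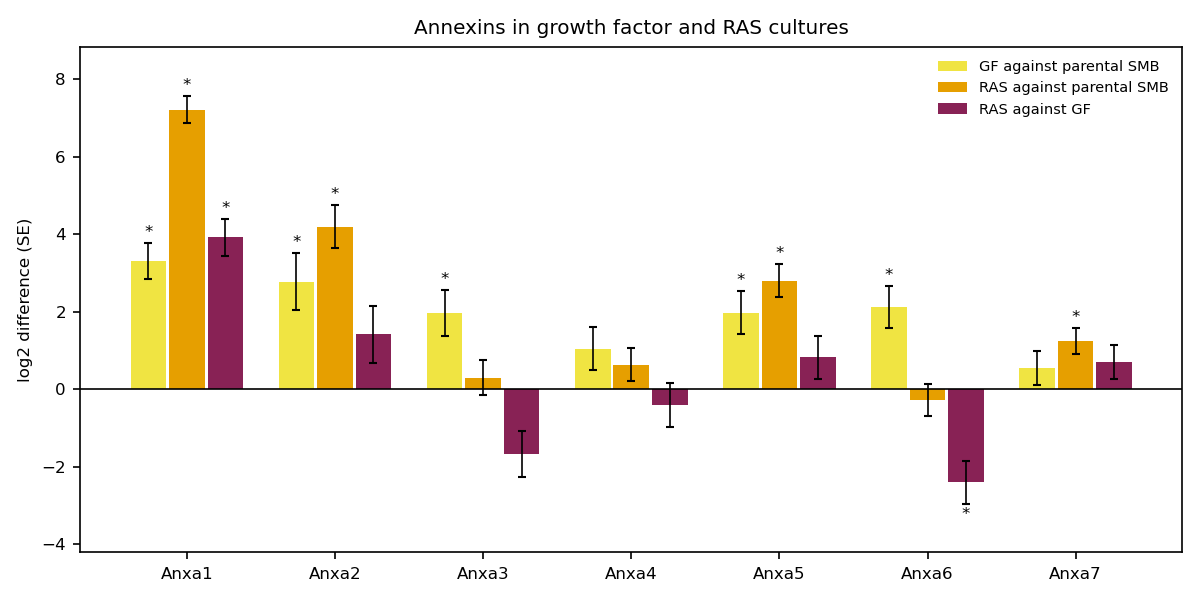
Differences between culture conditions for each measured annexin in log2 units, with the SE of the fit; an asterisk marks an adjusted p under 0.05. Anxa1 has the tallest bars for RAS against parental cells (7.21) and for RAS against GF cells (3.92), and Anxa6 has 2.13 in GF cells and -0.27 in RAS cells.

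Set directly against GF cells, RAS cells had more Anxa1 and less Anxa6, while 5.7% of all genes were called higher and 5.45% lower. Centring each array on its median moved the share of higher among called genes from 51.1% to 36.8% here. Anxa1 differed by 3.92 (SE 0.47, adjusted p = 0.000472), with RAS arrays from 11.75 to 14.51 and GF arrays from 8.22 to 11.005. Anxa6 fell by 2.40 from GF to RAS cells (SE 0.55, adjusted p = 0.015). Its RAS levels were 6.91, 6.84 and 7.89 in SMB21, 6.20 and 6.05 in SMB55, and 5.62 and 5.73 in SMB56, below the GF array of the same line in each case. The Anxa6 call was lost without the SMB21 GF array (-2.10, adjusted p = 0.0609), without the SMB56 GF array (-2.27, adjusted p = 0.0608), and without line SMB21 (adjusted p = 0.081) or SMB55 (adjusted p = 0.0843).

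Anxa3 was lower in RAS than in GF cells by 1.67 (SE 0.59), which was not called (adjusted p = 0.079). It was called without the SMB21 GF array (-2.74, adjusted p = 0.00837) and as a mean of the differences within lines (-1.70, adjusted p = 0.000536). Anxa2 differed by 1.42 (SE 0.74, adjusted p = 0.222), Anxa5 by 0.82 (SE 0.56), Anxa7 by 0.70 (SE 0.44) and Anxa4 by -0.42 (SE 0.57), and none of these was called.

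Among the parental lines, Anxa4 was the only member whose level differed by the F test, which called 5.08% of all genes (adjusted p = 0.02). SMB55 exceeded SMB21 by 1.82 (SE 0.32, adjusted p = 0.00827), and SMB56 lay between them at 8.57. The F test call was lost without parental SMB21 replicate 2 (adjusted p = 0.0515) or 4 (0.0589), without parental SMB55 replicate 1 (0.0949) or 2 (0.12), and in a fit of parental arrays alone (0.0896). Anxa5 was not called (adjusted p = 0.0802) but was without parental SMB55 replicate 1 (0.0365) or 2 (0.0401), and Anxa6 was called without parental SMB56 replicate 2 (0.0127).

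In primary MB, 5 of the 7 measured annexins were lower than in P6 cerebellum: Anxa1, Anxa2, Anxa3, Anxa5 and Anxa7. The tumors came from Ptch1 mutant adult mice and the P6 cerebellum was wild-type, so tumor, genotype and age cannot be told apart here. Over all genes 6.68% were called lower and 4.3% higher, and the median difference was -1.16 for the members and 0.05 for all genes. Each of the 5 lay lower on all 3 tumor arrays than on both P6 arrays, as did 23.8% of all genes. The share of higher among called genes was 39.2%, and 51.3% after median centring, and no member changed direction under either of the other scalings.

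Anxa3 fell most. It was at 9.87 and 9.91 in P6 cerebellum and 9.61 in the adult, and at 7.20, 7.40 and 7.51 in the tumors. The difference from P6 was -2.53 (SE 0.12, adjusted p = 4.56e-05). Anxa1 was at 9.50 on both P6 arrays, at 9.86 in the adult and at 8.35, 8.57 and 8.56 in the tumors, a difference of -1.001 (SE 0.10, adjusted p = 0.00148). Both calls held whichever single array was left out. With the replicate number as a block, Anxa1 was not called (-1.03, adjusted p = 0.076).

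Anxa2 was at 10.51 and 10.49 in P6 cerebellum, at 9.96 in the adult and at 8.11, 8.19 and 8.23 in the tumors. The tumors were close to each other and well below both ages of cerebellum. The difference was -2.32 (SE 0.47, adjusted p = 0.0255), in a fit that pools the spread of the tissues with that of the parental lines. It was not called without P6 replicate 1 or 2 (adjusted p = 0.152 and 0.172), without any 1 tumor (0.0579 to 0.0704), without parental replicate 1 of SMB55 (0.112) or SMB56 (0.104), or with all parental arrays and the line as a random block (0.262), and it was -0.74 with all probe sets averaged.

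Anxa5 was at 9.88 and 9.87 in P6 cerebellum, at 11.39 in the adult and at 8.44, 8.04 and 8.31 in the tumors. The difference from P6 was -1.61 (SE 0.36, adjusted p = 0.0359). It was not called without P6 replicate 1 or 2 (0.184 and 0.207), without any 1 tumor (0.0624 to 0.0895), without parental SMB55 replicate 2 (0.0601) or SMB56 replicate 1 (0.0516), or with the random block (0.0847).

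Anxa7 was at 9.22 and 9.45 in P6 cerebellum, at 10.75 in the adult and at 8.32, 8.07 and 8.13 in the tumors. The difference was -1.16 (SE 0.23, adjusted p = 0.0217). It was -1.14 and not called with the replicate number as a block (adjusted p = 0.0927). It was not called without P6 replicate 1 or 2 (0.101 and 0.182), tumor 2 or 3 (0.0541 and 0.0673) or parental SMB56 replicate 2 (0.0549), or with all probe sets averaged (-0.61, adjusted p = 0.0555).

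Anxa4 and Anxa6 were not called between tumors and P6 cerebellum. Anxa4 was at 8.13 and 8.29 in P6 cerebellum, 8.94 in the adult and 8.12, 7.83 and 9.06 in the tumors, a difference of 0.12 (SE 0.58). Tumor 3 was the only one above the P6 arrays. Anxa4 lies on chromosome 6, whose 726 measured genes had median differences from P6 of 0.18, 0.24 and 0.17 in tumors 1, 2 and 3. The other genes had medians of 0.03, 0.03 and 0.05, and Anxa4 itself had -0.09, -0.38 and 0.84. The part of the chromosome in the Anxa4 levels was not tested. Anxa6 was at 7.11 and 6.92 in P6 cerebellum, 7.34 in the adult and 7.04, 6.02 and 6.44 in the tumors, a difference of -0.52 (SE 0.36).

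Markers of other cell types differed between the same tissues, where 6.68% of all genes were called lower and 4.3% higher. Their part in the lower annexin levels was not tested. The summed intensity of the fibroblast and meningeal markers was 27999 and 31020 in P6 cerebellum and 1326 to 5098 in the tumors, and 8 of 10 fell. The endothelial and pericyte markers summed to 11513 and 11638 in P6 cerebellum and to 1569 to 2951 in the tumors, and 9 of 12 fell. Of the 9 astrocyte and Bergmann glia markers, 5 fell and 1 rose, with sums of 28978 to 31896 in P6 cerebellum and 3206 to 3499 in the tumors. The microglial markers went the other way, with sums of 7645 to 10296 in P6 cerebellum and 22094 to 36153 in the tumors, and 10 of 17 rose and 1 fell.

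**Figure D4:**
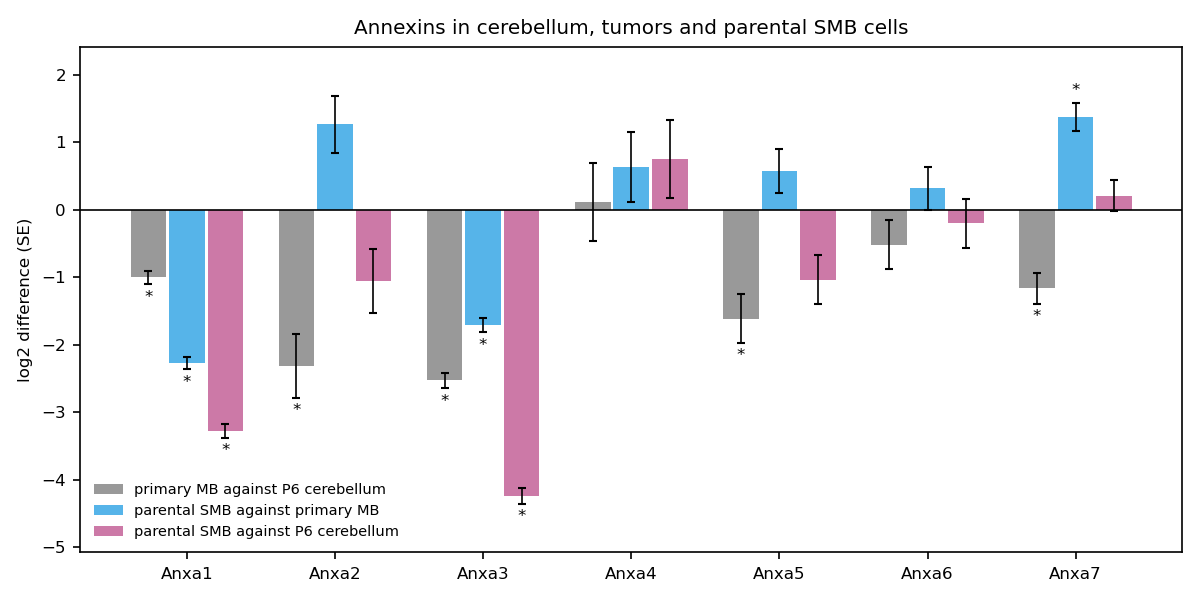
Differences between P6 cerebellum, primary MB and parental SMB cells for each measured annexin in log2 units, with the SE of the fit; an asterisk marks an adjusted p under 0.05. Anxa1 and Anxa3 are lower in each step, Anxa7 is lower in tumors (-1.16) and higher in parental cells than in tumors (1.37), and the bars of Anxa4 carry the largest SE.

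Parental SMB cells had still less Anxa1 and Anxa3 than primary MB, and more Anxa7. Over all genes 12.4% were called higher and 8.19% lower, and the tumor arrays are the same as those set against P6 cerebellum. Median centring shifted all genes by -0.21 here and by -0.12 against P6 cerebellum, and took the share of higher among called genes from 60.2% to 26.9% and from 57.1% to 40.4%. The 3 members differed by more than those shifts.

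Anxa1 differed by -2.28 (SE 0.09, adjusted p = 3.77e-05) and Anxa3 by -1.71 (SE 0.10, adjusted p = 0.00024). Parental arrays ran from 6.10 to 6.38 for Anxa1 and from 5.53 to 5.96 for Anxa3. Tumors ran from 8.35 to 8.57 and from 7.20 to 7.51. Anxa3 had -1.11 with a pseudocount of 64. Anxa7 differed by 1.37 (SE 0.20, adjusted p = 0.00611). Its parental arrays were at 9.72, 9.51, 9.72 and 9.57 in SMB21, 8.92 and 9.31 in SMB55, and 10.15 and 9.64 in SMB56. The tumors ran from 8.07 to 8.32. The Anxa7 difference was 0.72 with all probe sets averaged, and it was not called on either of the other Anxa7 probe sets alone. Anxa2 differed by 1.27 (SE 0.42, adjusted p = 0.076), which was called without parental SMB21 replicate 1 (1.42, adjusted p = 0.0235) and without line SMB21 (1.81, adjusted p = 0.000618). Anxa4 (0.63, SE 0.52), Anxa5 (0.58, SE 0.32) and Anxa6 (0.32, SE 0.32) were not called. Against tumors, 16 of 17 microglial markers were lower in parental cells, where 8.19% of all genes were called lower and 12.4% higher. The microglial sum was 661 to 810 in parental cells. Lower too were 5 of 12 endothelial and pericyte markers and 2 of 8 markers of granule neuron precursors and MB. Of 10 fibroblast and meningeal markers 3 were higher and 3 lower. Of 9 astrocyte and Bergmann glia markers 2 were higher and 2 lower. The part of any of these cells in the annexin changes was not tested.

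Against P6 cerebellum, only Anxa1 and Anxa3 of the measured members were called in parental cells, both lower, where 11% of all genes were called lower and 14.6% higher. The differences were -3.28 (SE 0.10, adjusted p = 5.67e-06) and -4.24 (SE 0.12, adjusted p = 3.81e-06). Parental cells differ from P6 cerebellum in genotype, tumor origin and culture, which cannot be told apart here. Anxa2 differed by -1.05 (SE 0.47, adjusted p = 0.146), which was called without line SMB21 (-0.51, adjusted p = 0.0223) and without parental SMB56 replicate 2 (-1.49, adjusted p = 0.044). Anxa5 differed by -1.03 (SE 0.36, adjusted p = 0.0769), which was called without line SMB56 (-1.41, adjusted p = 0.00902) and after median centring (-1.15, adjusted p = 0.0487). Anxa4 (0.75), Anxa7 (0.21) and Anxa6 (-0.20) were not called. In the same comparison 16 of 17 microglial, 11 of 12 endothelial and pericyte, 8 of 10 fibroblast and meningeal and 4 of 4 Purkinje cell markers were lower, and 5 of 9 astrocyte and Bergmann glia markers were lower and 1 higher. The Purkinje cell markers summed to 39009 and 39711 in P6 cerebellum and to 640 to 5353 in parental cells, and the endothelial and pericyte markers to 11513 and 11638 and to 662 to 5062. The part of these cells in the annexin differences was not tested.

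Ordered by their means, the conditions fell differently for each member, and neighbours with overlapping ranges are given as such. Anxa1 was highest in RAS cells (13.35), then in adult cerebellum (9.86), P6 cerebellum (9.50), GF cells (9.32) and primary MB (8.50), and lowest in parental cells (6.21). The range of GF cells covers those of adult cerebellum, P6 cerebellum and primary MB. Anxa2 ran from RAS cells (13.43) and GF cells (12.10), which overlapped, through P6 (10.50) and adult cerebellum (9.96) to parental cells (9.17) and primary MB (8.18). The range of parental cells (6.99 to 11.47) covers P6 cerebellum, adult cerebellum and primary MB. Anxa3 was highest in P6 (9.89) and adult cerebellum (9.61), followed by GF cells (7.71), primary MB (7.37), RAS cells (6.004) and parental cells (5.67). The range of GF cells (5.69 to 10.16) covers P6 cerebellum, adult cerebellum and primary MB. It also overlaps the ranges of RAS and parental cells, which overlapped each other.

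Anxa5 was highest in RAS cells (11.45) and adult cerebellum (11.39), followed by GF cells (10.59), P6 cerebellum (9.87), parental cells (8.69) and primary MB (8.26), and the only neighbours without overlap were P6 cerebellum and parental cells. Anxa6 was highest in GF cells (8.80), although 1 parental array (8.81) exceeded the SMB55 GF array (7.70). Adult (7.34) and P6 cerebellum (7.02) followed, and then parental cells (6.78), primary MB (6.50) and RAS cells (6.46). From P6 cerebellum down, each overlapped the next. The ranges of parental cells (5.95 to 8.81) and RAS cells (5.62 to 7.89) also cover adult cerebellum. Anxa7 ran from RAS cells (10.80) and adult cerebellum (10.75) through GF cells (10.08), parental cells (9.57) and P6 cerebellum (9.34), each overlapping the next, to primary MB (8.17), which stood apart. For Anxa4 every neighbouring pair overlapped, with means from 9.82 in GF cells to 8.21 in P6 cerebellum.

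The probe sets of a gene did not always give the same answer. Anxa1, Anxa3 and Anxa5 have 1 probe set each. For Anxa2, a second probe set followed the one used at r = 0.83 over the 24 arrays, with differences of 0.61 in RAS (adjusted p = 0.00059) and 0.70 in GF cells (adjusted p = 0.00687), but 0.05 between tumors and P6 cerebellum; its levels were 5.95 to 7.10. The remaining Anxa2 probe set never exceeded 5.38 and correlated at -0.47. For Anxa7, the other probe sets had RAS differences of 0.30 (adjusted p = 0.375) and 0.69 (adjusted p = 0.0462), and tumor differences from P6 of -0.57 and -0.09, neither called. Between parental cells and tumors they had 0.57 (adjusted p = 0.0686) and 0.21 (adjusted p = 0.306), neither called.

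For Anxa4 the second probe set correlated at 0.92 with the one used, and its RAS difference was 1.00 (SE 0.45, adjusted p = 0.103). For Anxa6 the other probe sets correlated at 0.97 and 0.80. The first of them had differences of 1.75 in GF cells (adjusted p = 0.0316) and -1.93 between RAS and GF cells (adjusted p = 0.0198), and the second had 1.09 (adjusted p = 0.0847) and -1.14 (adjusted p = 0.061). That second set was also lower in parental cells than in tumors (-0.54, adjusted p = 0.0326) and than in P6 cerebellum (-0.84, adjusted p = 0.00913), which the used set was not. These values come from a fit of all 20393 probe sets with 1 symbol.

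**Figure D5:**
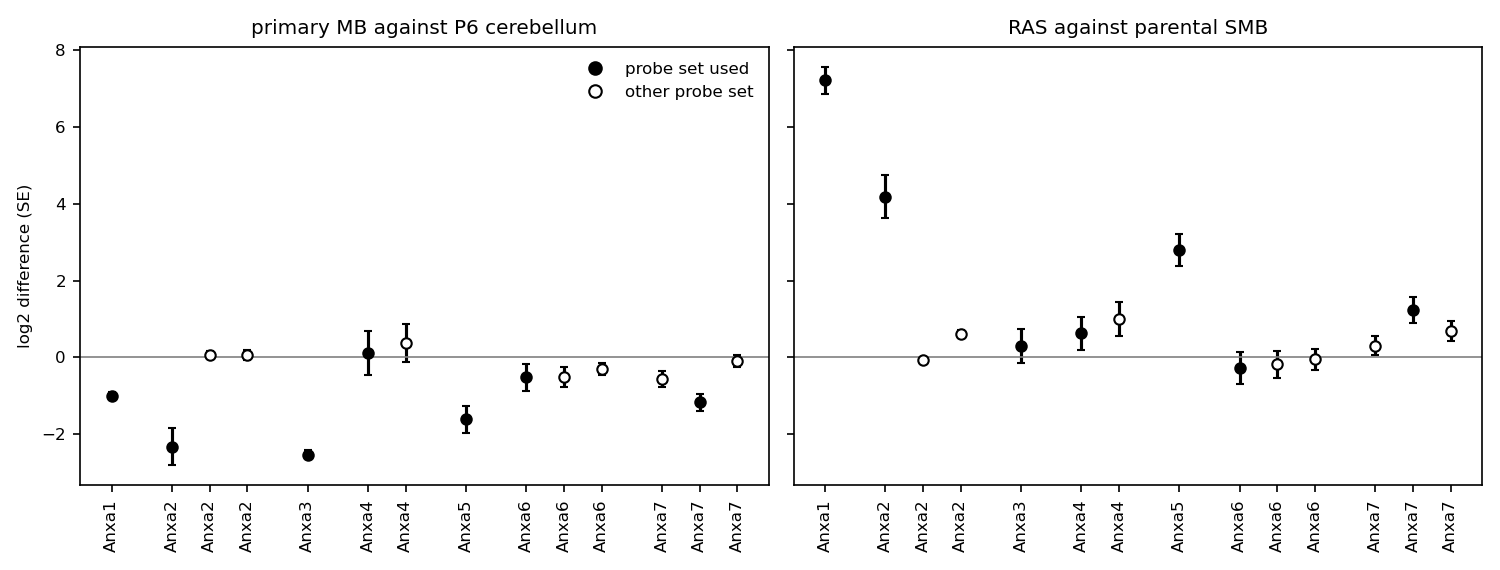
Difference of every probe set of each member between primary MB and P6 cerebellum (left) and between RAS and parental cells (right), in log2 units with the SE of the fit; filled points are the probe sets used and open points the others. The open points of Anxa2 (0.06 and 0.05 on the left) and of Anxa7 lie nearer to 0 than the filled ones.

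Beyond the members, 4 other annexins had a probe set of their own: Anxa8, Anxa9, Anxa10 and Anxa13. Anxa10 ran from 4.92 to 5.25 over all conditions. Anxa13 was lower in parental cells than in tumors (-0.43, SE 0.10, adjusted p = 0.0264) and than in P6 cerebellum (-0.42, SE 0.11, adjusted p = 0.0362), at levels below the lower quartile (5.37 to 5.73 in parental cells). Neither Anxa8 nor Anxa9 was called in any of the 6 comparisons of conditions, although single RAS arrays of SMB55 reached 7.41 for Anxa8 and 8.86 for Anxa9.

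Genes that work with annexins were followed by lists. Of 12 measured annexin partners and receptors, 9 rose in RAS cells against parental cells and 3 were not called. Over all genes 14.1% were called higher and 17.9% lower. The median difference of the 12 was 2.47, against -0.05 over all genes. Plat, tissue plasminogen activator, rose by 5.00 (SE 0.28, adjusted p = 5.97e-08), Plaur, the urokinase receptor, by 2.63 (SE 0.25, adjusted p = 5.38e-06), and S100a6, a calcium-binding partner of annexins, by 4.38 (SE 0.75, adjusted p = 0.000505), or by 2.59 without line SMB21. S100a10, the light chain of the Anxa2 complex, is named after its value was seen: it rose by 4.74 (SE 0.96, adjusted p = 0.00171), with overlapping arrays. In GF cells 1 of the 12 rose, Plat by 2.28 (adjusted p = 0.00242), where 3.99% of all genes were called higher. In primary MB against P6 cerebellum 3 of the 12 fell and 9 were not called, where 6.68% of all genes were called lower.

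Of 13 measured membrane repair genes, 6 rose in RAS cells and 7 were not called, with a median difference of 0.48, where 14.1% of all genes were called higher and 17.9% lower. Cavin1, a caveolar coat protein, rose by 2.35 (adjusted p = 5.55e-05), Capns1, the small subunit of calpain, by 1.29 (adjusted p = 5.96e-05), and Myof, the ferlin myoferlin, by 2.77 (adjusted p = 8.66e-05). With all probe sets averaged, Cavin1 had 0.75 and Myof 1.34. In GF cells Cavin1 (2.49) and Capns1 (1.01) rose and Vps4b, an ESCRT ATPase named after its value was seen, fell by 0.74. There 3.99% of all genes were called higher and 4.96% lower.

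Of 11 measured feedback and target genes of ERK, the kinase downstream of RAS and of the growth factor receptors, 10 rose in RAS cells and 8 in GF cells, and the others were not called; over all genes 14.1% and 3.99% were called higher. Phlda1 rose by 2.97 in RAS cells (SE 0.28, adjusted p = 4.1e-06), Dusp6, an ERK phosphatase, by 2.78 (SE 0.26, adjusted p = 4.39e-06) and Egr1, an early response transcription factor, by 3.18 (SE 0.31, adjusted p = 5.77e-06). Their GF differences were 2.18, 1.93 and 1.76.

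The genes whose patterns were most like each member were ranked by Pearson r over 12 group means, namely the 3 tissues and the 9 combinations of line and treatment; the means share arrays and lines, and r is a description. For Anxa1 they were Scara5 (0.94), Serpinf1 (0.94) and Enpp3 (0.92), and for Anxa2 they were Cd44 (0.97), Rhoc (0.97) and Fn1 (0.96). Anxa3 was nearest to Clec2d (0.96), Vcam1 (0.94) and St8sia4 (0.94), and Anxa5 to Map3k5 (0.90), Camk1d (0.89) and Tifa (0.88). Anxa6 was nearest to Dglucy (0.96), Egfr (0.92) and Creb3l1 (0.90), and Anxa7 to Tmbim1 (0.95), Mcfd2 (0.91) and Avpi1 (0.91). The nearest genes to Anxa4 had lower values: Smpdl3b (0.82), Yipf3 (0.80) and Mvb12a (0.79).

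Among the members themselves, the highest r over the same 12 means were 0.81 for Anxa5 with Anxa7 and 0.81 for Anxa1 with Anxa5, followed by 0.78 for Anxa1 with Anxa2. Anxa3 had values between -0.27 (with Anxa4) and 0.29 (with Anxa6).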

How the data were processed

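The data are 24 Affymetrix arrays of mouse RNA, biotin labelled by the manufacturer's protocol per the labels. The deposited values are linear summary intensities, 1 per probe set and array, made by the authors with a summarisation and normalization not given in the sources used here. An array has no read depth, and its precision is limited by signal over background and by the number of arrays. Of 22690 probe sets, 20393 carry 1 gene symbol in the platform annotation, and each of 12394 genes is represented by the probe set of greatest mean level.

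Values were used as log2(intensity + 16). Linear models with empirical Bayes moderation were fitted to all genes with limma 3.58.1 in R 4.3.3, with two-sided tests and Benjamini-Hochberg adjustment, and a gene was called at an adjusted p under 0.05. The tissue fit held the 2 P6 cerebella, the adult cerebellum with its own mean, the 3 tumors and 3 parental means, 1 per line. The culture fit held 18 arrays with treatment and line as terms. A fit with 9 means, 1 per line and treatment, gave the F tests between lines. Arrays of 1 line count as replicates in the culture fits, so those p-values hold for these 3 lines. The code for the statistics was tested on simulated data. Alternatives covered the pseudocount, a filter on dim genes, quantile normalization, median centring, the probe set rule, the samples in the fit, the replicate number as a block and each array or line left out.

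The members and the gene lists were chosen with earlier results of these data known. Named genes are all measured members, other annexins, the called genes with the 3 smallest adjusted p of each list in RAS against parental cells, and the 3 genes most correlated with each member over 12 group means; the other genes of the text are named as chosen after their values were seen. Promoter windows are those of RefSeq on GRCm38.p6. Same-numbered replicates were taken as unpaired. For P6 cerebellum with primary MB and for parental with RAS cells, their deviations from the group means correlated between -0.154 and 0.00498. GF cells have 1 array per line, so this check could not cover pairs of GF and parental arrays. Figures were drawn with matplotlib 3.10.9.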

Additional observations from a re-analysis of the deposited data

Results flagged for a closer look

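The RAS response differed between the 3 lines, by the F test of the difference itself, for Anxa1 (adjusted p = 0.01997), Anxa4 (adjusted p = 0.01202) and Anxa5 (adjusted p = 0.01202). Anxa1 and Anxa5 had the greatest differences in SMB21 (8.26 and 4.19) and the smallest in SMB56 (5.97 and 0.98), and Anxa4 differed in sign between SMB55 (-1.53) and the other lines (1.62 and 1.02). SMB55 and SMB56 have 2 parental and 2 RAS arrays each.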

How the results depend on the processing

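No member or named gene reversed a call under the alternatives run. Among the values of these genes under alternatives, 1802 stayed on the same side of the threshold, 89 were no longer called and 16 were newly called. Counts of members called are given with the count over all genes in the same fit. For MB against P6 cerebellum the 5 members (1361 genes) became 3 (896) with the random block and 3 (415) with the replicate block. In GF cells the 5 members (1109 genes) became 1 (200) without line SMB21, 2 (306) without line SMB56, 2 (1095) in a fit of the groups compared, 1 (243) with the replicate block and 1 (363) with the crossed replicate block in SMB55, an alternative chosen after seeing the data because the deviations of its same-numbered arrays correlated at -0.154. For RAS against GF cells the 2 members (1383 genes) became 1 (1010) without line SMB21, 1 (222) without line SMB55, 1 (161) with the replicate block and 1 (158) with the crossed block. For the RAS response by line the 3 members (428 genes) became 0 (9) with the replicate block, and for the parental lines the 1 member (630 genes) became 0 (236) with the parental arrays alone. With each array left out in turn, member counts ranged from 2 to 5 for MB against P6 cerebellum (341 to 1401 genes), 3 to 4 for parental cells against MB (1606 to 2644), 2 to 3 for parental cells against P6 cerebellum (970 to 3699), 1 to 5 for GF cells (401 to 1190), 4 to 4 for RAS cells (3425 to 4124), 1 to 2 for RAS against GF cells (457 to 1659), 2 to 4 for the RAS response by line (190 to 1230) and 0 to 2 for the parental lines (228 to 1280). The cause of these changes was not tested. Levels near the lower quartile of an array limit how large a decrease can be seen.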
